A study of Homo sapiens with 60 samples.

Results

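The regions described here are stretches of the genome that carried an H3K27Ac peak in each of 6 conditions of a lung cancer cell line, called shared regions below. Peaks with a global IDR (irreproducible discovery rate) of 0.05 or less on chromosomes 1 to 22 were pooled over the 6 H3K27Ac lists, overlapping peaks were merged, and a merged region counted as shared when it overlapped a passing peak of every list. This gave 1403 shared regions of 21390 merged regions, or 6.56%. The regions were thus chosen by their H3K27Ac peaks and IDR values in these lists, so their H3K27Ac widths and ranks are given as a description, without a test. RAD21, PDS5A and IgG peaks played no part in the choice.

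H3K27Ac, acetylation of lysine 27 on histone H3, is a mark of active promoters and enhancers. RAD21 is a core subunit of cohesin, the ring complex that holds sister chromatids together and extrudes loops of chromatin that can bring enhancers and promoters close. PDS5A is a regulator that binds cohesin and affects its release from chromatin and the length of its loops. IgG, an antibody with no chromatin target, gives the background of the assay.

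The data are CUT&RUN libraries, in which an antibody directs a nuclease to cut out the DNA beneath its target, from PC9, a human lung adenocarcinoma line that depends on mutant EGFR. Cells of 3 genotypes were grown with osimertinib, an EGFR inhibitor raised stepwise from 100 nM over 6 to 8 weeks, or left untreated. The groups are Rescue cells (METTL7A knockout cells that overexpress METTL7A with MYC and FLAG tags) with osimertinib, METTL7A knockout (KO) cells with osimertinib, wild-type (WT) cells with osimertinib, untreated Rescue cells, untreated KO cells and untreated WT cells. All are PC9 cells, and the Rescue cells carry the knockout as well as the added gene. METTL7A, a methyltransferase-like protein of the endoplasmic reticulum and lipid droplets, was itself not measured by these libraries. Each of the 24 peak lists used (H3K27Ac, RAD21, PDS5A and IgG in 6 conditions) joins 2 replicates, and no source says whether these came from separate cultures. The 12 H2A samples were not analysed here.

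Over all lists, H3K27Ac had between 5045 passing peaks in untreated WT cells and 14177 in untreated Rescue cells. RAD21 lists held 10864 peaks in treated Rescue, 4293 in treated KO and 16340 in treated WT cells, against 8993 in untreated Rescue, 5283 in untreated KO and 3635 in untreated WT cells. PDS5A lists held 11243, 4021 and 12323 peaks in treated Rescue, KO and WT cells, against 13746, 901 and 1731 peaks in untreated Rescue, KO and WT cells. The IgG list of treated WT cells stood apart with 310 passing peaks, where the other 5 IgG lists held 6 to 32. The number of reads behind each list is unknown, so list length, enrichment and depth cannot be told apart.

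Because every shared region is in every list, the shared regions made up more of the short lists than of the long ones. They were 11.05% of the 12700 regions of the treated Rescue list, 17.1% of 8202 in treated KO cells and 14.2% of 9902 in treated WT cells. They were 10.02% of 14003 regions in untreated Rescue, 26.5% of 5303 in untreated KO and 28.4% of 4940 in untreated WT cells. The weakest of a region's 6 IDR values lay in the treated WT list for 498 shared regions, in the untreated WT list for 371, in the untreated KO list for 287 and in the treated Rescue list for 18. The WT and untreated KO lists were therefore the ones that most often decided membership.

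The boundary of the set is not sharp. The weakest −log10 IDR of a shared region ranged upward from 1.302, just inside the limit of 1.301, and 188 regions lay within 0.1 of it. Among the 2049 regions present in exactly 5 lists, 2010 also overlapped a deposited peak in the sixth list that missed the limit. The strongest of those excluded peaks had a value of 1.2999, and 169 lay within 0.1 of the limit. The list that lacked such a region was untreated WT in 576 cases and treated WT in 490, but treated Rescue in 168 and untreated Rescue in 152. Without any IDR limit, 12629 of the 21390 regions (59.0%) overlapped a deposited H3K27Ac peak in all 6 lists.

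Shared regions covered 3.65 Mb in all. The merged regions were 505 to 18335 bp wide with a median of 2240 bp, and 146 of them (10.4%) reached 4 kb. Their median width in the list, over all passing peaks of a region, was 1823 bp in treated Rescue, 1747 bp in treated KO and 1820 bp in treated WT cells, against 1905 bp in untreated Rescue, 1477 bp in untreated KO and 1588 bp in untreated WT cells. The shared regions were thus widest in untreated Rescue cells and narrowest in untreated KO cells. The other regions of the same lists had medians of 1512, 1607 and 1666 bp in treated Rescue, KO and WT cells and of 1590, 1464 and 1597 bp in untreated Rescue, KO and WT cells. Shared regions exceeded the others most in both Rescue lists, while in untreated KO and WT cells the medians were within 13 bp of each other.

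**Figure D1:**
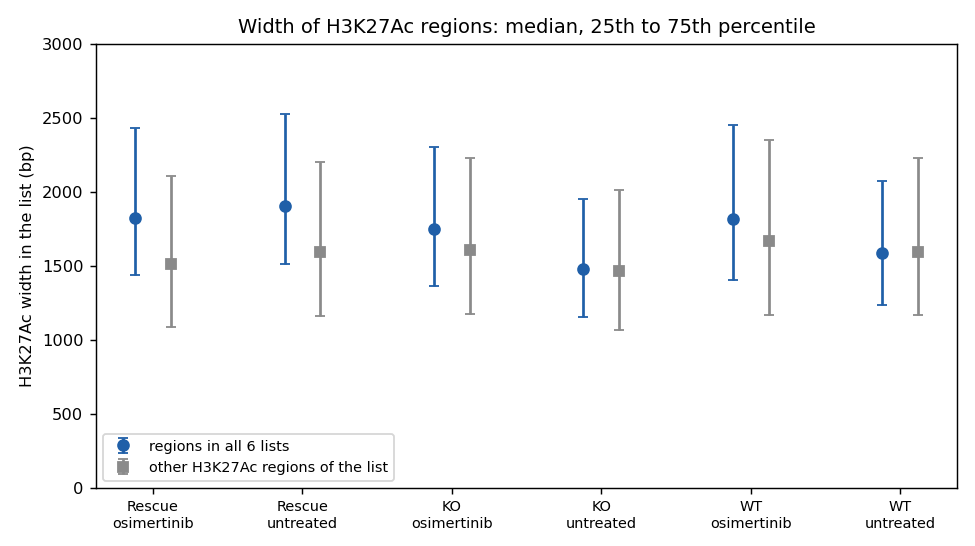
Width in bp of the shared regions (blue circles) and of the other H3K27Ac regions of the same list (grey squares) in each condition; symbols are medians and bars run from the 25th to the 75th percentile of regions. Shared regions had a median of 1905 bp in untreated Rescue cells and 1477 bp in untreated KO cells, and their range overlapped that of the other regions in each list.

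Width moved in the same direction for most shared regions within a genotype. In osimertinib-treated KO cells 1094 of 1403 regions were wider than in untreated KO cells, with a median ratio of 1.14. In treated WT cells 1007 were wider than in untreated WT cells, with a median ratio of 1.13. Treated Rescue cells went the other way, with 551 regions wider and 848 narrower than in untreated Rescue cells and a median ratio of 0.966. The shift belonged to the lists as a whole: over all regions present in both lists the median ratios were 1.162 in KO, 1.15 in WT and 0.969 in Rescue cells. Among untreated cells, 1243 shared regions were wider in Rescue than in KO cells (median ratio 1.26, and 1.30 over all regions in both lists), and 1194 were wider in Rescue than in WT cells (median ratio 1.17).

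Single regions varied more than these medians. The widest of a region's 6 widths was a median of 1.52 times the narrowest, and at least 2 times the narrowest for 272 regions (19.4%). The narrowest width was in untreated KO cells for 638 regions (45.5%) and in untreated WT cells for 365 (26.0%), whereas the widest was in untreated Rescue cells for 436 (31.1%) and in treated WT cells for 417 (29.7%). The widest merged region, chr16:88819868-88838202 (GRCh37), spanned 18335 bp. Its passing peaks spanned 18335 bp in treated Rescue, 14379 bp in treated KO and 14398 bp in untreated Rescue cells, with 2 peaks in each, but 2586 bp in treated WT, 2481 bp in untreated KO and 2332 bp in untreated WT cells, with 1 peak in each. The region chr11:69450549-69466140, 15592 bp wide, had passing peaks that spanned 15520 bp in treated Rescue, 3649 bp in treated KO and 9178 bp in treated WT cells, against 4029, 9643 and 965 bp in untreated Rescue, KO and WT cells. Between 2.57% and 3.92% of shared regions held more than 1 passing peak in a list, and for those the width runs from the first start to the last end, while the strongest peak gives the −log10 p.

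The shared regions were spread over the genome. Each of the 22 chromosomes held some, from 2.26% of the merged regions on chromosome 18 to 8.13% on chromosome 3. The median distance from a shared region to the nearest other one was 279091 bp, and 17 gaps between neighbours were 10 kb or less. The fullest 1 Mb windows held 8 shared regions each: chromosome 11 from 64 to 65 Mb with 52 merged regions, chromosome 12 from 6 to 7 Mb with 47, and chromosome 14 from 77 to 78 Mb with 28. Genes and sequences under the regions are not reported, because the gene tables at hand are on another genome build than these coordinates.

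RAD21 was found at shared regions more often than at the other H3K27Ac regions of the same list in each condition. The share of shared regions with a passing RAD21 peak was 68.1% in treated Rescue, 37.8% in treated KO and 74.3% in treated WT cells, and 57.4% in untreated Rescue, 41.9% in untreated KO and 33.2% in untreated WT cells. The 95% Wilson intervals, which cover counting error only, were at most about 3 points to either side, as for treated WT cells with 71.9 to 76.5%. At the other regions the shares were 36.6%, 20.4% and 44.3% in treated Rescue, KO and WT cells, and 26.5%, 30.2% and 17.8% in untreated Rescue, KO and WT cells. Over all regions of each list the background was 40.1% in treated Rescue, 23.4% in treated KO, 48.6% in treated WT, 29.6% in untreated Rescue, 33.3% in untreated KO and 22.2% in untreated WT cells.

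The difference between shared and other regions averaged 22.8 ± 8.91 percentage points for RAD21 (SD, n = 6 conditions), from 11.7 points in untreated KO cells to 31.5 in treated Rescue cells. An exact permutation test that flips the sign of each condition's difference, two-sided, gave p = 0.03125, the smallest it can give, and 0.0469 after Benjamini-Hochberg adjustment over the 3 antibodies. The share was higher at shared regions in 6 of 6 conditions. The same 1403 regions enter in each condition, so the test measures how steady the difference is over conditions and not over separate sets of regions. With every region on a deposited IgG peak left out the difference was 18.5 points, still positive in each condition, with an adjusted exact permutation p of 0.0938. Because each condition stayed positive, the exact permutation p before adjustment stayed at 0.03125. The adjusted value rose because PDS5A, adjusted together with RAD21, turned negative in untreated KO cells. With each RAD21 list cut to the length of the shortest it was 15.45 points, positive in 6 of 6 conditions, with an adjusted exact permutation p of 0.0469.

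PDS5A had the same pattern with a wider spread. Of the shared regions, 60.4% held a passing PDS5A peak in treated Rescue, 32.7% in treated KO and 57.8% in treated WT cells, and 63.6% in untreated Rescue, 4.70% in untreated KO and 13.4% in untreated WT cells. The other regions held one in 30.6%, 18.6% and 32.4% of cases in treated Rescue, KO and WT cells and in 31.5%, 3.28% and 7.92% in untreated Rescue, KO and WT cells. Background over all regions of the list was 33.9%, 21% and 36% in treated Rescue, KO and WT cells and 34.7%, 3.66% and 9.47% in untreated Rescue, KO and WT cells. The difference averaged 18.04 ± 12.9 points (SD, n = 6 conditions) and was positive in 6 of 6, with p = 0.03125 and an adjusted p of 0.0469 in the same exact permutation test. It was largest in Rescue cells, with 29.8 points under treatment and 32.05 without, followed by 25.4 points in treated WT and 14.1 in treated KO cells. It was 5.48 points in untreated WT and 1.42 points in untreated KO cells, and averaged 11.6 points over the 4 conditions without Rescue. With regions on a deposited IgG peak left out it was 12.7 points, with an adjusted exact permutation p of 0.0938, and turned to −0.487 points in untreated KO cells. With each PDS5A list cut to its strongest 901 peaks, the length of the shortest, the difference was 2.81 points, positive in 6 of 6 conditions, with an adjusted exact permutation p of 0.0469.

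**Figure D2:**
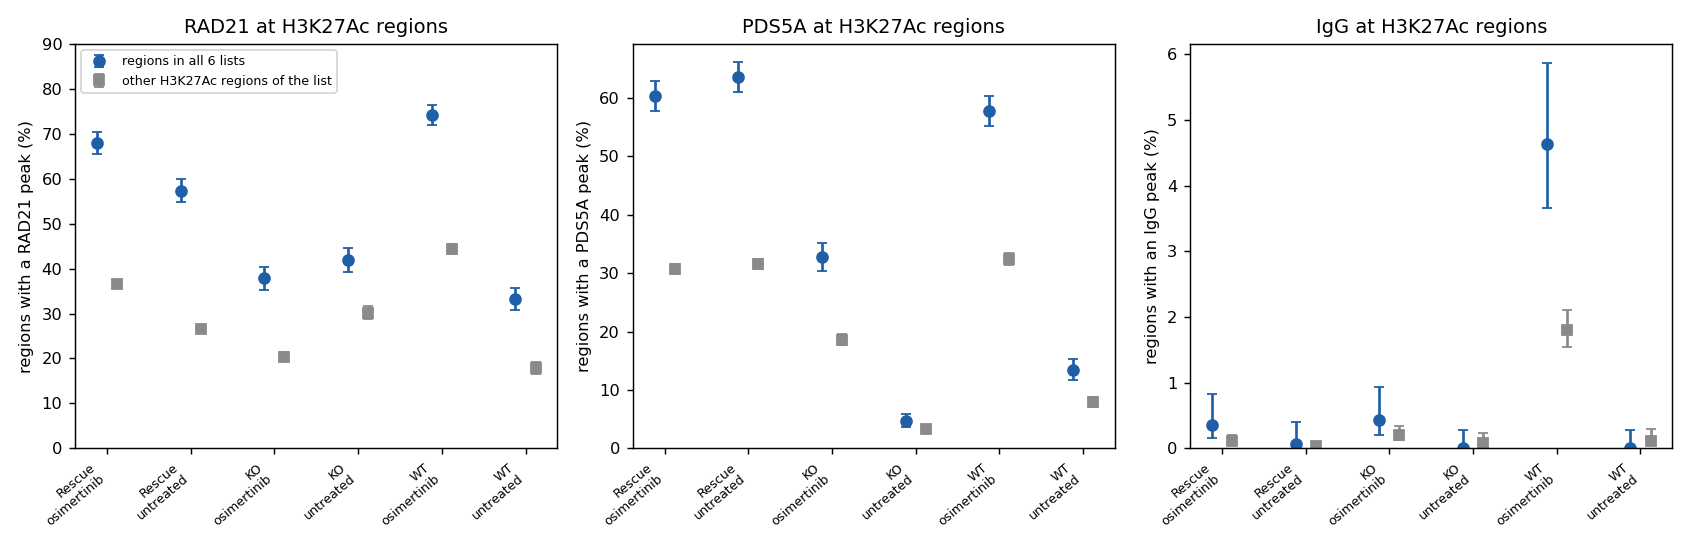
Share of H3K27Ac regions, in percent, that overlapped a RAD21 (left), PDS5A (middle) or IgG peak (right) of the same condition, for shared regions (blue circles) and the other regions of the list (grey squares); bars are 95% Wilson intervals and the scales differ between panels. Shared regions lie above the others in each condition for RAD21 and PDS5A, and the IgG share stands out in treated WT cells at 4.63% against 1.80%.

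IgG peaks were rare at the limit used. They overlapped 5 shared regions (0.356%) in treated Rescue, 6 (0.428%) in treated KO and 65 (4.63%) in treated WT cells, and 1 (0.0713%) in untreated Rescue cells. In untreated KO and untreated WT cells the count was 0 of 1403, which allows a share of up to 0.214% taken as 3 counts of 1403, with a 95% Wilson upper limit of 0.273%. The background over all regions of the list was 0.142% in treated Rescue, 0.244% in treated KO, 2.2% in treated WT, 0.0428% in untreated Rescue, 0.0566% in untreated KO and 0.081% in untreated WT cells. The mean difference from other regions, 0.523 ± 1.14 points (SD, n = 6 conditions), was positive in 4 of 6 and did not pass (adjusted exact permutation p = 0.219); it was 0.104 points without WT.

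Weak IgG signal was far more common there. Counting every deposited IgG peak whatever its IDR, 1007 shared regions (71.8%) overlapped one in at least 1 condition, against 28.9% of the other merged regions. In treated WT cells the share was 63.5% of shared regions against 32.6% of the other regions of that list, and 405 shared regions (28.9%) had a deposited IgG peak in treated WT cells alone. The difference in deposited IgG peaks averaged 11.3 points over the 6 conditions and was positive in each, with an adjusted exact permutation p of 0.0312. Regions with such a peak also carried more RAD21: in treated WT cells 80.6% of the 1007 shared regions with a deposited IgG peak held a RAD21 peak, against 58.1% of the 396 without one. Both shares were above those of the other regions, which were 71.7% with and 28.6% without a deposited IgG peak. In untreated WT cells the RAD21 shares were 39.0% of shared regions with and 18.4% of those without, against 29.1% and 7.39% of the other regions.

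The higher RAD21 and PDS5A shares were also seen within groups of regions split by width or by H3K27Ac rank. When regions were split into 4 groups by merged width, at the shared regions' quartiles of 1763, 2240 and 2909 bp in each condition, RAD21 was more frequent at shared regions in 24 of 24 groups, by a median of 20.1 points, and PDS5A in 23 of 24, by a median of 16.5 points. When they were split into 4 groups by H3K27Ac rank in the list, RAD21 was again higher in 24 of 24 groups, by a median of 13.7 points, and PDS5A in 23 of 24, by a median of 9.85 points. The exception in both cases was the PDS5A share of untreated KO cells, whose list was the shortest. Ranks can still differ within a group. In treated Rescue cells 1068 shared regions were in the highest rank group and 12 in the lowest. Their median percentile in that list was 86.6, against 44.9 for the other regions. The same shared regions recur in the 6 conditions, so the 24 groups are not separate sets. Where a RAD21 peak overlapped a shared region, its summit lay a median of 132 to 183 bp from the H3K27Ac summit, depending on the condition, and within 250 bp in 59.4 to 68.2% of cases. For other regions the medians were 122 to 164 bp.

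**Figure D3:**
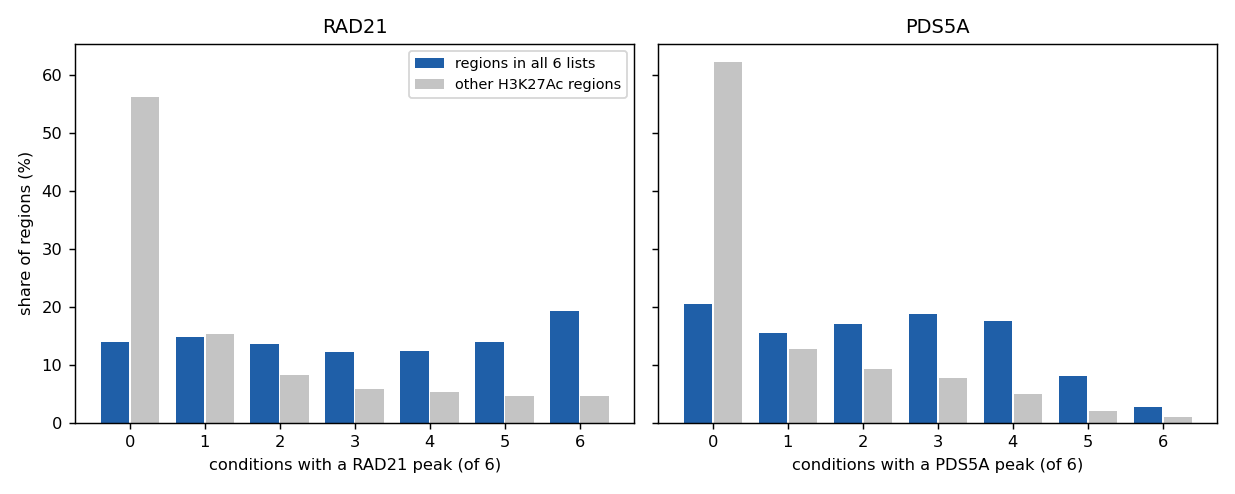
Share of shared regions (blue) and of the other merged regions (grey), in percent, by the number of conditions, 0 to 6, in which the region overlapped a RAD21 (left) or PDS5A (right) peak. RAD21 was present in all 6 conditions at 19.2% of shared regions and 4.68% of other regions, and PDS5A at 2.78% and 0.951%.

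H3K27Ac in all 6 conditions did not mean a passing RAD21 or PDS5A peak in all 6. The shortest lists cap such counts. Untreated WT cells had RAD21 at 466 shared regions and untreated KO cells had PDS5A at 66, so no more could hold them in all 6. RAD21 peaks were present in all 6 conditions at 270 shared regions (19.2%), against 4.68% of the other merged regions, and in none at 196 (14.0%), against 56.2%. The rest spread almost evenly over 1 to 5 conditions, with 170 to 208 regions at each number. The most frequent pattern besides all and none was RAD21 in treated WT cells alone, at 140 regions (9.98%), followed by treated Rescue and treated WT cells together, at 108 (7.70%). No share among the other regions is given for these patterns. PDS5A was present in all 6 conditions at 39 shared regions (2.78%), against 0.951% of the other merged regions, and in none at 288 (20.5%), against 62.2%. The other merged regions had H3K27Ac in fewer conditions, so these shares are not matched for it. With every deposited peak counted, 1395 shared regions (99.4%) overlapped RAD21 and 1393 (99.3%) PDS5A in at least 1 condition, against 77.9% and 75.03% of the other regions. In single conditions 85.4 to 97.7% of shared regions overlapped a deposited RAD21 peak, against 63.7 to 80.8% of the other regions of the list. For PDS5A this was 48.5 to 97.3%, against 38.4 to 73.4%.

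Most shared regions with PDS5A also held RAD21 in each condition, while most with RAD21 also held PDS5A in 4 of 6. Both were present at 53.2%, 23.8% and 51.03% of shared regions in treated Rescue, KO and WT cells, and at 47.3%, 4.42% and 11.05% in untreated Rescue, KO and WT cells. At the other regions of the list the shares were 24.5%, 12.7% and 27.1% in treated and 20.0%, 3.03% and 5.32% in untreated Rescue, KO and WT cells. Of the shared regions with PDS5A, 72.8 to 93.9% also held RAD21, depending on the condition, against 63.4 to 92.2% of other regions with PDS5A. The reverse share moved with the length of the PDS5A list: 78.1%, 62.9% and 68.7% of RAD21-bearing shared regions held PDS5A in treated Rescue, KO and WT cells, and 82.5%, 10.5% and 33.3% in untreated Rescue, KO and WT cells. For other regions it was 66.8%, 62.4% and 61.2% in treated and 75.5%, 10.03% and 29.8% in untreated Rescue, KO and WT cells. Both proteins were present in all 6 conditions at 34 shared regions (2.42%), and each of the 34 also overlapped a deposited IgG peak in some condition. Among the other merged regions 135 (0.675%) held both in all 6, and 48 of these had no deposited IgG peak. At the other extreme, 3 shared regions (0.214%) had no deposited RAD21, PDS5A or IgG peak anywhere, against 3478 of the other merged regions (17.4%). The 3 were chr3:101421740-101423276, chr22:36447240-36449757 and chr20:49177348-49179328.

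The RAD21 and PDS5A shares did not move in 1 direction under osimertinib over the 3 genotypes. The RAD21 share of shared regions was 10.7 points higher in treated than in untreated Rescue cells, 4.06 points lower in treated than in untreated KO cells, and 41.1 points higher in treated than in untreated WT cells. The mean change of 15.9 ± 23.0 points (SD, n = 3 genotypes) did not pass the same exact permutation test over genotypes, with an adjusted p of 0.5, and the smallest p that 3 genotypes allow is 0.25. It was 3.31 points without WT and 25.9 without KO. The PDS5A share was 3.21 points lower in treated than in untreated Rescue cells, 28.0 points higher in treated KO and 44.4 points higher in treated WT cells, with a mean of 23.1 ± 24.2 points (SD, n = 3 genotypes, adjusted exact permutation p = 0.5). That mean was 12.4 points without WT and 36.2 without Rescue. For IgG the changes were 0.285, 0.428 and 4.63 points in Rescue, KO and WT cells (adjusted exact permutation p = 0.5), with a mean of 0.356 points without WT.

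In WT cells most shared regions that differed held RAD21 in treated cells only. A RAD21 peak was present in treated WT cells only at 617 shared regions and in untreated WT cells only at 41, with 425 regions in both and 320 in neither. The background over all 3150 regions in both WT lists was 41.1% and 2.95%, close to the 44.0% and 2.92% of shared regions. Of the 617, 89 had no deposited RAD21 peak of any strength in untreated WT cells. KO cells had 128 shared regions with RAD21 in treated cells only (background 8.12%) and 185 in untreated cells only (background 13%), against 403 in both. Rescue cells had 242 in treated cells only (background 15.2%) and 92 in untreated cells only (background 5.36%), against 713 in both. The RAD21 rates of shared regions were near those of all H3K27Ac regions in the same pair of lists. Those backgrounds include the 1403 shared regions themselves, among 3150 regions in WT, 3754 in KO and 9063 in Rescue cells. The closeness is thus partly built in, most of all in WT cells.

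PDS5A differed between treated and untreated cells at more shared regions in WT and KO than in Rescue cells. Treated WT cells held PDS5A at 646 shared regions that lacked it in untreated WT cells (background 39.2%), and 23 had it in untreated WT cells only (background 1.46%), with 165 in both. In KO cells 401 regions had it in treated cells only (background 25.2%) and 8 in untreated cells only (background 0.613%), with 58 in both. In Rescue cells 145 had it in treated cells only (background 9.14%), 190 in untreated cells only (background 11.9%) and 702 in both.

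List length moved with these changes. The RAD21 list of treated WT cells was 4.50 times as long as that of untreated WT cells, and the PDS5A list 7.12 times. With each RAD21 list cut to its strongest 3635 peaks, the share of shared regions with RAD21 was 14.1 points lower in treated than in untreated WT cells, 0.356 points higher in treated than in untreated KO cells and 2.0 points higher in treated than in untreated Rescue cells, so that the mean change turned to −3.92 points. With each PDS5A list cut to its strongest 901 peaks, the PDS5A share was 1.497 points higher in treated than in untreated Rescue cells, 5.20 points higher in treated than in untreated KO cells and 4.42 points lower in treated than in untreated WT cells, with a mean change of 0.760 points. Of the peaks in the RAD21 list, 6.61% lay at shared regions in treated WT cells, against 13.0% in untreated WT cells. The share was 12.6% in treated and 11.3% in untreated KO cells, and 9.06% in treated and 9.21% in untreated Rescue cells.

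Among treated cells, KO had RAD21 and PDS5A at fewer shared regions than either other genotype. RAD21 was present in treated KO cells but not treated WT cells at 42 shared regions (background 2.99%), and in treated WT but not treated KO cells at 553 (background 37.6%), with 489 in both. Treated Rescue cells had RAD21 at 464 shared regions where treated KO cells did not (background 28.9%), and the reverse held at 40 (background 2.43%). Between treated Rescue and treated WT cells the split was less uneven, with 137 in Rescue only (background 8.49%) and 224 in WT only (background 18.3%). PDS5A was present in treated KO but not treated WT cells at 67 shared regions (background 4.09%) and the reverse held at 419 (background 27.7%). It was present in treated Rescue but not treated KO cells at 428 (background 25%) and the reverse held at 40 (background 2.74%). Between treated Rescue and treated WT cells it was split more evenly, with 205 in Rescue only (background 11.7%) and 169 in WT only (background 14.5%). RAD21 in both treated Rescue and treated WT cells but not in treated KO cells was found at 362 shared regions (25.8%), against 12.8% of all merged regions. The opposite pattern, RAD21 in treated KO cells alone among the treated, was found at 7 (0.499%), against 0.36% of all merged regions. For PDS5A the same patterns held 277 shared regions (19.7%, background 8.92%) and 13 (0.927%, background 0.626%). The backgrounds of these patterns run over all merged regions, 36.9% of which had H3K27Ac in 1 condition only. They are therefore not matched for H3K27Ac, unlike the backgrounds of the pairs above. In those pairs 33.1% of shared regions had RAD21 in treated Rescue but not treated KO cells, and 39.4% in treated WT but not treated KO cells. The treated KO lists were also the shortest of the treated lists for both proteins. With lists cut to equal length the RAD21 share was 34.7% in treated Rescue, 33.4% in treated KO and 19.1% in treated WT cells, and the PDS5A share was 5.84%, 9.91% and 3.35% in treated Rescue, KO and WT cells, so that KO was no longer the lowest for either protein.

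In untreated cells, Rescue had RAD21 and PDS5A at more shared regions than KO or WT cells. RAD21 was present in untreated Rescue but not untreated KO cells at 272 shared regions (background 17.5%) and in untreated KO but not untreated Rescue cells at 55 (background 4.68%). PDS5A was present in untreated Rescue but not untreated KO cells at 829 (background 50.7%) and the reverse at 3 (background 0.413%). At 332 of the 829, untreated KO cells had no deposited PDS5A peak at all. Against untreated WT cells, untreated Rescue cells had RAD21 alone at 374 shared regions (background 22.6%) and untreated WT cells alone at 35 (background 2.53%). Untreated Rescue cells had PDS5A alone at 715 shared regions (background 41.7%) and untreated WT cells alone at 11 (background 0.99%). Untreated KO and untreated WT cells differed in opposite directions for the 2 proteins: RAD21 was in KO only at 213 shared regions (background 14.5%) and in WT only at 91 (background 5.51%), but PDS5A in KO only at 6 (background 0.598%) and in WT only at 128 (background 7.93%). These counts also moved with list length. With lists cut to equal length the RAD21 share was 32.7% in untreated Rescue, 33.1% in untreated KO and 33.2% in untreated WT cells, and the PDS5A share was 4.35%, 4.70% and 7.77% in untreated Rescue, KO and WT cells, so that the Rescue share was the lowest for both.

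The rank of the shared regions among each other was only partly kept between conditions. For each region the −log10 p of its strongest peak in each replicate was turned into a percentile among the 1403 shared regions, and the 2 replicate percentiles were averaged. Between replicates of 1 condition Spearman's rho over the 1403 regions was 0.581 in treated WT cells, 0.760 in treated Rescue cells and between these in the other 4 conditions. Treated WT cells stood apart from every other condition, with rho of 0.304 to 0.380, while the other 10 pairs of conditions had rho of 0.494 to 0.696. Treated Rescue and treated KO cells were the closest pair, at 0.696, followed by untreated KO and untreated WT cells, at 0.690. These values are descriptions over regions that share their libraries, and a replicate pair in treated WT cells also had the lowest rho.

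**Figure D4:**
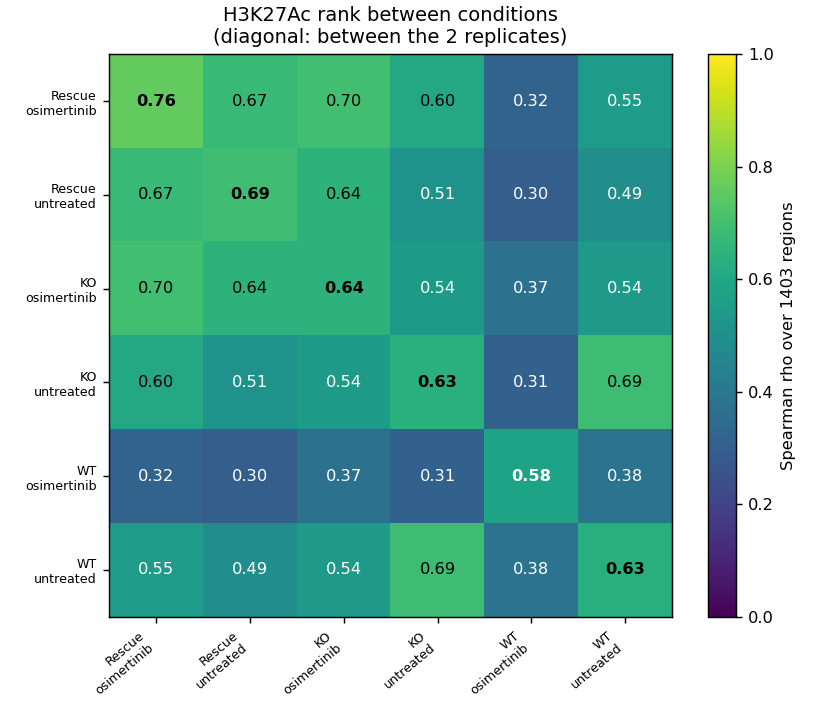
Spearman's rho of the H3K27Ac percentile over the 1403 shared regions between each pair of conditions (color and printed value; replicates averaged), with rho between the 2 replicates of each condition on the diagonal in bold. The row of treated WT cells holds the lowest values, 0.30 to 0.38, and its replicates had a rho of 0.58.

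The range of a region's 6 percentiles had a median of 43.6 points. It was 50 points or more for 516 regions (36.8%) and under 20 points for 83. Only 48 regions lay above the 75th percentile in all 6 conditions and 14 below the 25th in all 6. Of the 48, 15 (31.3%) had RAD21 in all 6 conditions and 43 (89.6%) a deposited IgG peak, against 19.2% and 71.8% of all shared regions; of the 14, 2 and 7 did. Treated WT cells held the highest percentile of 320 regions (22.8%) and the lowest of 337 (24.0%), more than any other condition on both counts.

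The steadiest of the high regions kept their place almost exactly. The region chr20:52824157-52825896, 1740 bp wide, had replicate −log10 p values of 138 and 159 in treated Rescue, 82.2 and 85.0 in treated KO, and 73.4 and 75.3 in treated WT cells. Without drug they were 110 and 132 in untreated Rescue, 143 and 97.4 in untreated KO, and 146 and 112 in untreated WT cells. The values differed by about 2 times between lists, while the lowest mean percentile was 99.5. RAD21 lay there in all 6 conditions and PDS5A in 4. The next, chr7:16459249-16462110, had mean percentiles of 99.4 or more with RAD21 in 5 conditions and PDS5A in 3. The third, chr10:32634517-32636672, had its lowest replicate percentiles, 96.3 and 98.7, in treated WT cells, and held RAD21 in all 6 conditions. The region chr20:5045508-5047945, seventh by this measure, had a lowest mean percentile of 93.0. It held no passing RAD21 or PDS5A peak and no deposited IgG peak in any condition. It did overlap a deposited RAD21 or PDS5A peak below the limit, because it is not among the 3 shared regions without any such peak.

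For comparisons of 2 conditions, percentiles were taken among all regions in both lists. A rank was called changed when the mean moved by 20 points or more and both replicates of one condition lay beyond both of the other. By this rule 459 shared regions (32.7%, background 31.5%) differed between treated and untreated KO cells, 222 of them higher (background 15.6%) and 237 lower (background 15.9%) in treated cells. In WT cells 536 differed (38.2%, background 38.7%), 249 higher (background 19.1%) and 287 lower (background 19.6%) in treated cells. In Rescue cells 220 differed (15.7%, background 25.4%), 144 higher (background 12.6%) and 76 lower (background 12.8%) in treated cells. These ranks come from the lists that chose the regions, so nothing is read from the shares beside their backgrounds.

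**Figure D5:**
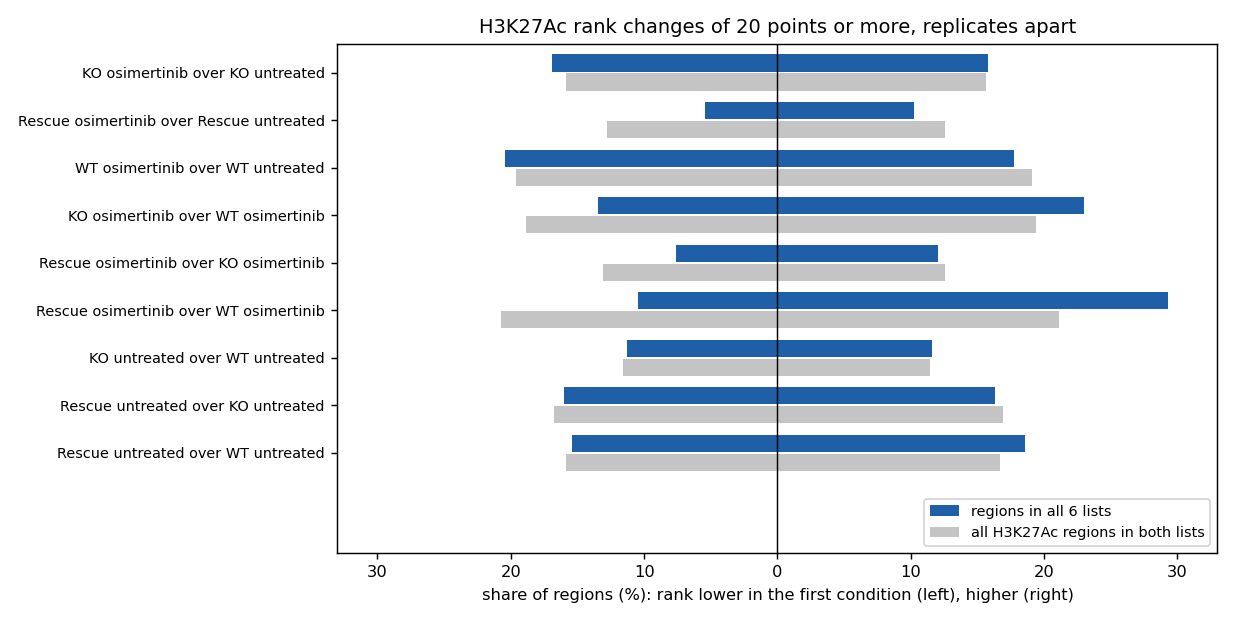
Share of regions, in percent, whose H3K27Ac rank was at least 20 points lower (left) or higher (right) in the first-named condition with the replicates apart, for shared regions (blue) and all regions in both lists (grey). In treated Rescue against treated WT cells 29.3% of shared regions ranked higher and 10.5% lower, where the bars of all regions are nearly equal.

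Between treated genotypes the calls leaned to one side when ranks were taken among all regions in both lists. Against treated WT cells, 411 shared regions ranked higher in treated Rescue cells (background 21.1%) and 147 lower (background 20.7%), with a median shift of 9.13 points. Treated KO cells had 323 higher (background 19.4%) and 189 lower (background 18.9%) than treated WT cells, with a median shift of 4.52 points. In all, 558 shared regions differed between treated Rescue and WT cells (39.8%, background 41.8%), 512 between treated KO and WT cells (36.5%, background 38.3%) and 276 between treated Rescue and KO cells (19.7%, background 25.7%). Treated Rescue cells against treated KO cells gave 169 higher (background 12.5%) and 107 lower (background 13.1%). Ranked among the shared regions alone, the calls were nearly balanced. Treated Rescue against WT cells then gave 300 higher and 301 lower, treated KO against WT cells 285 and 271, and treated Rescue against KO cells 178 and 172. The treated WT list also most often held a region's weakest IDR value, and nothing is read from this lean. In untreated cells, where 321 (22.9%, background 23%), 454 (32.4%, background 33.7%) and 476 (33.9%, background 32.6%) shared regions differed between KO and WT, Rescue and KO, and Rescue and WT, the calls were balanced. There were 163 higher and 158 lower in KO than in WT cells (background 11.5% and 11.6%), 229 higher and 225 lower in Rescue than in KO cells (background 16.9% and 16.8%), and 260 higher and 216 lower in Rescue than in WT cells (background 16.7% and 15.8%).

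The regions with the largest shifts differed from one comparison to the next, and several were extreme in treated WT cells. At chr14:23503184-23504931, 1748 bp wide, the replicate −log10 p values were 95.5 and 107 in treated Rescue, 52.5 and 35.4 in treated KO, and 12.6 and 15.8 in treated WT cells. Without drug they were 51.5 and 59.4 in untreated Rescue, 26.9 and 27.2 in untreated KO, and 34.3 and 38.9 in untreated WT cells. Treated WT cells were the lowest of the 6 in both replicates, and the percentile there was 79.4 points lower than in untreated WT cells, 84.3 points below treated KO and 88.8 points below treated Rescue cells. No RAD21 peak passed there in any condition, and PDS5A was present in both Rescue lists.

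At chr11:72910405-72914116 the replicate percentiles among shared regions were 69.6 and 69.8 in treated Rescue, 79.3 and 73.2 in treated KO and 4.3 and 6.9 in treated WT cells, against 98.1 and 82.1 in untreated Rescue, 88.8 and 75.7 in untreated KO and 94.1 and 88.9 in untreated WT cells. Treated WT cells did not overlap with any other condition, and the passing peak there was 1652 bp wide, against spans of 2586 to 3517 bp elsewhere. Neither RAD21 nor PDS5A passed at this region in any condition. The largest upward shift in treated against untreated WT cells was at chr3:126761306-126763545, with percentiles of 86.2 and 99.1 in treated and 9.4 and 0.5 in untreated WT cells. Treated WT was the only condition with a passing RAD21 and PDS5A peak there, while KO cells had percentiles of 83.0 and 57.1 when treated and 9.2 and 5.9 when untreated with neither protein. Treated Rescue cells went the other way at this region, at 7.3 and 5.5 against 70.8 and 87.3 in untreated Rescue cells.

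The largest shift in Rescue cells was at chr20:48643601-48647151, where the replicate −log10 p values were 11.2 and 14.7 in treated and 65.2 and 56.2 in untreated Rescue cells. Treated KO cells had 39.1 and 46.6 there and untreated KO cells 15.4 and 17.7, so the value was lower in treated than in untreated Rescue cells and higher in treated than in untreated KO cells. The peak of treated Rescue cells was wide for its height, at 3485 bp against 1486 bp in untreated Rescue cells. At chr14:69255579-69264491 the shift between treated and untreated KO cells, −81.2 points, went with 1 peak of 796 bp in treated against 2 peaks that spanned 7589 bp in untreated KO cells. At chr19:54674915-54679339 the untreated KO cells were low, with percentiles of 15.4 and 10.3 and a peak of 468 bp, against 96.8 and 95.05 and 3226 bp in treated KO cells. In these last 2 regions the compared lists differ much in the length covered within the same merged region. RAD21 and PDS5A were present in all 6 conditions at the chromosome 19 region, and an IgG peak passed in 1.

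Changes in rank under osimertinib were at most weakly correlated between genotypes. Replicates of 1 condition had a rho of only 0.581 to 0.760, so a low rho does not show that the changes differ. Spearman's rho of the treated minus untreated percentile over the 1403 shared regions was −0.0394 between KO and Rescue, 0.196 between KO and WT and −0.0433 between Rescue and WT cells, over regions that share libraries within a genotype. The percentile was higher in treated cells in all 3 genotypes at 189 regions (13.5%) and lower in all 3 at 197 (14.0%). By 20 points or more in each genotype these numbers were 15 and 17. No share over all regions stands beside these counts, so nothing is read from them.

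Shared regions with cohesin ranked higher in H3K27Ac than those without in the same condition. Regions with a RAD21 peak had a median percentile 16.6 points above those without in treated Rescue, 13.0 points in treated KO and 8.83 points in treated WT cells, and 13.7, 5.77 and 0.882 points in untreated Rescue, KO and WT cells. For PDS5A the gaps were 14.95, 14.0 and 9.27 points in treated Rescue, KO and WT cells and 12.4, 13.0 and 10.5 points in untreated Rescue, KO and WT cells. A deposited IgG peak went with larger gaps of 26.5, 21.9 and 10.8 points in treated Rescue, KO and WT cells and 21.1, 18.1 and 11.7 points in untreated ones. Regions with RAD21 were about as wide as those without, with medians of 1814 and 1869 bp in treated WT and 1815 and 1844 bp in treated Rescue cells. Among the 270 regions with RAD21 in all 6 conditions, the −log10 p of RAD21 and of H3K27Ac had a rho of −0.0274 to 0.200 within a condition, while RAD21 values of pairs of conditions had a rho of 0.400 to 0.694. A link of RAD21 with H3K27Ac rank was not particular to shared regions. At the other regions the RAD21 share rose from the lowest to the highest rank group in each condition. It rose from 20.5% to 59.1% in treated Rescue and from 13.3% to 26.7% in untreated WT cells.

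Rank changes and RAD21 changes went together only loosely. Among shared regions whose rank was higher in treated than in untreated Rescue cells, RAD21 was present at 65.3% in treated and 42.4% in untreated cells, and among those whose rank was lower at 44.7% in treated and 48.7% in untreated cells. In KO cells the shares were 45.9% in treated and 44.1% in untreated cells where the rank was higher, and 28.3% and 37.1% where it was lower. In WT cells RAD21 was more frequent in treated cells whichever way the rank moved, at 78.3% against 34.5% where it was higher, 68.3% against 32.4% where it was lower and 75.1% against 33.1% where no change was called. The RAD21 share of treated WT cells was thus far above that of untreated WT cells both at shared regions that ranked lower and at those that ranked higher.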

How the data were processed

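Per the submitters' processing notes, reads were handled with Trimmomatic, Bowtie2 2.4.2, SAMtools 1.16, bedtools 2.30, deepTools 3.5.1 and MACS2 2.2.7.1 on GRCh37; the role of each tool is not given there. The deposited lists are IDR tables that join 2 replicates per group, with −log10 p per replicate, a global IDR score on the −log10 scale and peak positions, all made by the authors and not limited by IDR. The lowest −log10 p in any list was 3.00. Passing peaks had a −log10 IDR of at least 1.301, and any overlap of 1 bp counted. The labels plan 20 M paired reads per library; the depth reached is unknown, and intervals cover counting error only. Overlaps, Wilson 95% intervals, percentiles and exact sign-flip permutation tests were computed with Python 3.11.15, numpy 2.4.6, pandas 2.3.3 and scipy 1.17.1, tested on simulated lists. Tests compare shares over 6 conditions or 3 genotypes and were adjusted over 3 antibodies. Regions named by position are the 10 highest by their lowest percentile, up to 3 rises and falls per comparison, the widest, and those without cohesin or with most IgG; those with the fullest account were chosen from these after their values were seen. The regions and lists were chosen with earlier results of these data known.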

Additional observations from a re-analysis of the deposited data

Results flagged for a closer look

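The change of the RAD21 share at shared regions between treated and untreated cells differed in sign between genotypes. It was −4.06 points in KO and 10.7 points in Rescue cells, a difference of −14.8 points, and −4.06 points in KO and 41.1 points in WT cells, a difference of −45.1 points. For PDS5A it was 28.0 points in KO and −3.21 points in Rescue cells, a difference of 31.2 points, and −3.21 points in Rescue and 44.4 points in WT cells, a difference of −47.6 points. With 1 list per genotype and treatment these differences were not tested, and the length of the lists differed too. With lists cut to equal length the RAD21 changes were 0.356, 2.0 and −14.1 points and the PDS5A changes 5.20, 1.497 and −4.42 points in KO, Rescue and WT cells.

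On chromosome X, which the rule leaves out, 14 of 419 merged H3K27Ac regions were present in all 6 lists, or 3.34% against 6.56% on chromosomes 1 to 22.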

How the results depend on the processing

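The number of shared regions was 402 at a global IDR of 0.01 and 13160 with every deposited peak, and 1550 to 1977 when 1 list was not required. With lists cut to equal length the RAD21 change under osimertinib was −3.92 points that of PDS5A 0.760 points, and the difference between shared and other regions 15.45 points for RAD21, 2.81 for PDS5A and −0.0455 for IgG. With every deposited peak that IgG difference was 11.3 points. Leaving out regions on deposited IgG peaks gave 18.5 points for RAD21 and 12.7 for PDS5A. Leaving out each genotype gave 18.6 to 26.9 points for RAD21 and 11.6 to 23.2 for PDS5A, where the smallest p that 4 conditions allow is 0.125. Over the alternatives other than a genotype left out, the change under osimertinib ran between −3.92 and 16.4 points for RAD21 and between 0.760 and 23.02 for PDS5A. In Rescue treated against untreated, 448 shared regions had a changed rank at 10 points (31.9%, background 38.5%) and 108 at 30 points (7.70%, background 13.3%). Ranked among shared regions alone the number was 404. From 1 replicate it was 336 or 370 (23.9% or 26.4%, background 36.8% or 38.6%). At 30 points the number was 288 (20.5%, background 20.2%) for KO treated against untreated and 159 (11.3%, background 14.6%) for treated Rescue against KO. For the latter it was 448 (31.9%, background 36.5%) at 10 points and 438 or 503 (31.2% or 35.9%, background 40.4% or 42.8%) from 1 replicate. Among untreated cells 30 points gave 172 for KO against WT (12.3%, background 12.4%), 297 for Rescue against KO (21.2%, background 21.5%) and 312 for Rescue against WT (22.2%, background 20.9%). Untreated KO against WT gave 545 (38.8%, background 38.4%) with the lower replicate value and 579 or 590 (41.3% or 42.1%, background 41.2% or 41.4%) from 1 replicate. With IgG-overlapping regions left out, 396 shared regions remained. Treated against untreated, 130 of these changed in KO (32.8%, background 32.1%), 74 in Rescue (18.7%, background 29.8%) and 151 in WT (38.1%, background 39.8%). Between treated genotypes, 149 changed for KO against WT (37.6%, background 39.2%), 92 for Rescue against KO (23.2%, background 30.2%) and 172 for Rescue against WT (43.4%, background 45.2%). Between untreated genotypes, 105 changed for KO against WT (26.5%, background 26.2%), 126 for Rescue against KO (31.8%, background 34.6%) and 146 for Rescue against WT (36.9%, background 33.8%). The cause of the other shifts was not tested. No paired analysis was possible because each list joins both replicates without naming them. Shares at the limit depend on list length, and reads per library are unknown.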
